A study of Homo sapiens with 10 samples.

Results

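The EGFR family is 4 receptor tyrosine kinases, EGFR, ERBB2, ERBB3 and ERBB4, with the growth factors that bind them, and 9 genes were chosen by name: the 4 receptors and the ligands AREG, EREG, HBEGF, TGFA and NRG1. Of these 9 genes, 7 had a probe set named by the platform annotation, 1 probe set each, among 17687 named genes. No probe set was named for ERBB2, the receptor that binds no ligand and serves as a shared partner, or for AREG, amphiregulin, and both were not analysed here. The data are 10 whole-transcript microarrays from 2 established human neuroblastoma cell lines, SK-N-AS and SK-N-FI, both cultured in IMDM with serum. The groups were SK-N-AS given BG-P1600-TAT at 30 µM and collected after 48 h (3 arrays, numbered 28, 29 and 30), SK-N-AS control (PBS, 3 arrays, numbered 25, 26 and 27), SK-N-FI treated in the same way (2 arrays, numbered 1 and 2) and SK-N-FI control (PBS, 2 arrays, numbered 1 and 2). The series title describes BG-P1600-TAT as PEGylated and as having the norepinephrine transporter and thyrointegrin αvβ3 as its targets. The SK-N-AS titles write BG-P-TAT, which was read as the same compound. The series design mentions 3 SK-N-FI replicates, and 2 per condition were analysed here. Separate cultures are not stated for the SK-N-AS replicates, so the p-values there reflect array-to-array spread that could be technical.

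Receptors of this family sit in the cell membrane, bind a ligand outside the cell, pair with one another and phosphorylate their tails, which recruit adaptors that start the RAS-MAPK and PI3K pathways. EGFR is bound by HBEGF, TGFA, EREG and AREG, while NRG1, neuregulin 1, is a ligand of ERBB3 and ERBB4. Most ligands are made as membrane proteins and are cut free by ADAM proteases. In the mouse neural crest, the lineage from which neuroblastoma arises, NRG1 and ERBB3 support Schwann cell precursors.

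The values are log2 signals per probe set. A probe set was called above background on an array where it exceeded a threshold, the 95th percentile of that array's own 612 negative controls. This percentile lay between 6.75 and 7.23 in SK-N-AS and between 7.44 and 8.26 in SK-N-FI, where treated array 1 had the highest value. Medians of the 21448 gene probe sets lay between 5.75 and 5.81 in SK-N-AS and between 6.61 and 6.62 in SK-N-FI. Medians of the negative controls lay closer, between 3.86 and 4.04 in SK-N-AS and between 4.02 and 4.05 in SK-N-FI. Whether a separate normalization of each line gave the offset of the gene medians was not tested. Levels compared across the lines have to be read with this offset. The first principal component of SK-N-AS held 50.04% of the variance. Arrays 25 and 28 had negative scores on it, -31.0 for treated array 28 and -57.5 for control array 25. The other 4 had positive scores spread from 4.33 to 50.6, the highest on treated array 30. Of 7 measured noradrenergic neuroblastoma markers, DBH, PHOX2A and SLC6A2 exceeded the background threshold on all 4 SK-N-FI arrays and on none of 6 SK-N-AS arrays, ISL1, HAND2 and GATA3 exceeded it on all 10, and TH on none. Of 8 mesenchymal markers, 6 exceeded it on all SK-N-AS arrays and 3 on all SK-N-FI arrays, and of 5 fibroblast markers 4 and 1 did. As deposited, limma (adjusted p under 0.05) called 4 mesenchymal markers toward SK-N-AS controls and 2 toward SK-N-FI controls. Of the fibroblast markers it called 3 and 2, against 11.5% and 47.8% of all probe sets. The log2 differences, SK-N-AS minus SK-N-FI, were 6.14 for FN1, 5.25 for DCN and 6.56 for LUM. They were -2.70 for CD44, -1.62 for SNAI2, -0.84 for COL1A2 and -0.64 for PDGFRB. After quantile normalization the counts were 6 and 1, and 5 and 0 (24% and 22.6% of all). Limma called all 7 noradrenergic markers toward SK-N-FI controls as deposited, TH at background among them. After quantile normalization it called 4 (DBH, PHOX2A, SLC6A2 and ISL1) toward SK-N-FI, and none toward SK-N-AS under either scaling. ISL1, above background in both lines, differed by -5.97 as deposited and by -4.65 after quantile normalization. Of 3 measured Schwann cell markers (SOX10, S100B and MBP) none exceeded the background threshold on any array. Among macrophage markers, CD68 exceeded it on all 6 and PTPRC on 5 SK-N-AS arrays, while CD14, CSF1R and LYZ did so on none. Of 6 epithelial markers, 5 exceeded the background threshold on no array. KRT8 exceeded it on 5 of 6 SK-N-AS arrays and on all 4 SK-N-FI arrays. The part of these markers in the results was not tested, and in bulk RNA fewer cells of a type and less RNA per cell cannot be told apart.

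Only EGFR and NRG1 had signal above background on all 10 arrays. HBEGF crossed the threshold on 1 of 6 SK-N-AS arrays and 1 of 4 SK-N-FI arrays, and ERBB3, ERBB4, TGFA and EREG crossed it on none. Across all gene probe sets, 27.2% were above background on all 10 arrays and 50.2% on none. With the 99th percentile of the negative controls as the threshold, NRG1 passed on 1 of 10 arrays and the other 6 members on none, so that the detection of EGFR and NRG1 rests on the threshold chosen. The level of a member below the threshold is not known from its signal, and a difference between groups there describes signal at background.

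**Figure D1:**
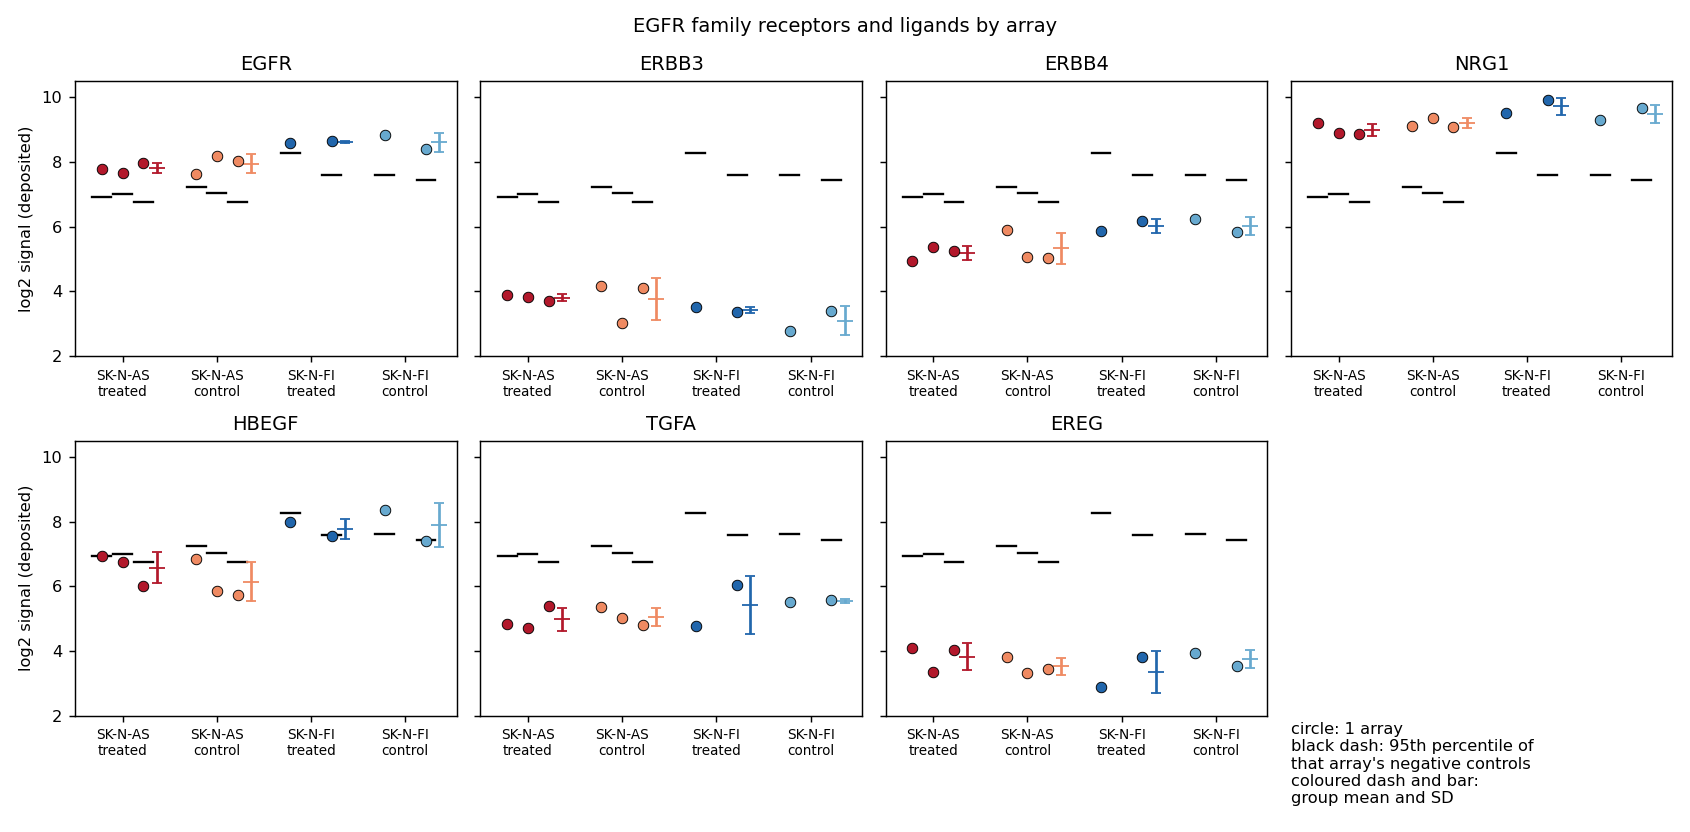
Log2 signal (vertical axis) of the 7 measured members in the 4 groups, 1 circle per array, with each array's background threshold as a black dash and the group mean and SD beside the circles. EGFR and NRG1 lie above the dash on all 10 arrays, HBEGF lies around it, and ERBB3, ERBB4, TGFA and EREG lie below it.

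EGFR, the receptor for the EGF-type ligands, had log2 signals of 7.77, 7.67 and 7.98 on treated SK-N-AS arrays 28, 29 and 30, against 7.63, 8.19 and 8.03 on control arrays 25, 26 and 27. The arrays of the conditions overlapped, and the lowest value was that of control array 25. In SK-N-FI, EGFR had 8.59 and 8.64 on treated arrays 1 and 2, against 8.82 and 8.40 on control arrays 1 and 2, so that both treated values lay between the control values. Its signal exceeded the threshold of its array by 0.41 to 1.28 in SK-N-AS and by 0.33 to 1.21 in SK-N-FI, and these ranges overlapped.

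EGFR passed the threshold on all arrays and EREG on none, and the 250 bases before their RefSeq start sites are printed because they differ in the promoter letters searched. They are from RefSeq in the build GRCh38.p14, EGFR at chr7:55018767-55019016 and EREG at chr4:74364895-74365144, both on the plus strand. Capitals mark a GC box (GGGCGG) or a TATA box (TATAAA) on either strand.
EGFR: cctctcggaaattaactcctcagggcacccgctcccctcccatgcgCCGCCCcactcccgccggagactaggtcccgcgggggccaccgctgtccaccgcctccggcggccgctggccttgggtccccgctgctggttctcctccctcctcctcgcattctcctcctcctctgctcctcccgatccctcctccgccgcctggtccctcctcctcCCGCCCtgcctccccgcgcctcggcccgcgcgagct
EREG: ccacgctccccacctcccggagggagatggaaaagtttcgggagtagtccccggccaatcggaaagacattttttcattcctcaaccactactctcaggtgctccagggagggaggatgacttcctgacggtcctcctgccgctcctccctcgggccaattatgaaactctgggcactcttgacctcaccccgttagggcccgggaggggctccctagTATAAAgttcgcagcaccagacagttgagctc
The EGFR window held 2 GC boxes and no TATA box with 73.6% G and C, and the EREG window held 1 TATA box and no GC box with 58.0% G and C. Over all 35116 RefSeq windows of this length, 42.64% held a GC box and 10.72% a TATA box, and the median G and C content was 58.0%. The windows of HBEGF and TGFA held 5 and 3 GC boxes, and that of ERBB4 held 1. Promoter entries were matched for 7 of the 9 genes, among them the unmeasured ERBB2 and AREG but not ERBB3 or NRG1. The AREG window held 1 GC box and 1 TATA box, and the ERBB2 window neither. A match of letters is a description of the window, and the arrays did not measure what binds there.

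ERBB3, the neuregulin receptor with little kinase activity of its own, had signals of 3.89, 3.83 and 3.70 on treated SK-N-AS arrays 28, 29 and 30, against 4.16, 3.03 and 4.10 on control arrays 25, 26 and 27. In SK-N-FI it had 3.50 and 3.36 on treated arrays, against 2.77 and 3.40 on control arrays. Relative to the threshold of its array, ERBB3 lay between -4.001 and -2.65 in SK-N-AS and between -4.83 and -4.04 in SK-N-FI. ERBB4, the neuregulin receptor with an active kinase, had 4.95, 5.38 and 5.25 on treated SK-N-AS arrays, against 5.88, 5.07 and 5.03 on control arrays, where control array 25 was highest. In SK-N-FI it had 5.87 and 6.17 on treated arrays, against 6.22 and 5.82 on control arrays. Relative to the threshold, ERBB4 lay between -1.97 and -1.35 in SK-N-AS and between -2.38 and -1.39 in SK-N-FI. Treated and control arrays overlapped in both lines for both receptors.

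Of the ligands, NRG1 was above background throughout. It had 9.19, 8.88 and 8.87 on treated SK-N-AS arrays 28, 29 and 30, against 9.12, 9.37 and 9.08 on control arrays 25, 26 and 27. Treated arrays 29 and 30 lay below every control array, and treated array 28 lay among the controls. In SK-N-FI, NRG1 had 9.52 and 9.91 on treated arrays 1 and 2, against 9.28 and 9.67 on control arrays 1 and 2. Treated array 1 lay between the control arrays. NRG1 exceeded its array's threshold by 1.87 to 2.34 in SK-N-AS and by 1.26 to 2.32 in SK-N-FI.

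HBEGF, a heparin-binding ligand of EGFR and ERBB4, had 6.93, 6.76 and 6.02 on treated SK-N-AS arrays 28, 29 and 30, against 6.84, 5.86 and 5.73 on control arrays 25, 26 and 27. Treated arrays 28 and 29 and control array 25 were the higher ones, so that the conditions overlapped. Only treated array 28 passed the threshold, by 0.01. In SK-N-FI, HBEGF had 7.98 and 7.55 on treated arrays 1 and 2, against 8.37 and 7.41 on control arrays 1 and 2. Only control array 1 passed, by 0.76. Relative to their thresholds, treated array 1 lay at -0.28, with the high threshold of 8.26 on that array, treated array 2 at -0.04 and control array 2 at -0.03.

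TGFA, transforming growth factor alpha, ranged from 4.72 to 5.38 on treated and from 4.80 to 5.35 on control arrays of SK-N-AS. In SK-N-FI it had 4.78 and 6.04 on treated arrays, against 5.51 and 5.58 on control arrays, the widest gap between treated SK-N-FI arrays among the 7 members. EREG, epiregulin, ranged from 3.34 to 4.10 on treated and from 3.31 to 3.80 on control arrays of SK-N-AS. It had 2.90 and 3.82 on treated SK-N-FI arrays, against 3.94 and 3.54 on control arrays. The value nearest to its array's threshold was -1.38 relative to it for TGFA and -2.72 for EREG, both in SK-N-AS.

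The first comparison asked whether the conjugate changed these transcripts in SK-N-AS. No member passed the test. EGFR averaged 7.81 ± 0.16 in treated and 7.95 ± 0.29 in control cells (log2 signal, SD, n = 3 each), a log2 difference of -0.15 with a 95% interval of -0.65 to 0.36. NRG1 averaged 8.98 ± 0.18 in treated and 9.19 ± 0.16 in control cells, a difference of -0.21 (-0.68 to 0.25). For both the interval excluded a 2-fold change of signal in either direction. The same held for 6 of the 7 members, those at background among them, and for 82.1% of all probe sets. HBEGF had the highest difference, 0.43 (-0.37 to 1.22), from 6.57 ± 0.48 in treated and 6.14 ± 0.61 in control cells, and this interval included a 2-fold rise. Without arrays 25 and 28 the differences were -0.29 for EGFR, -0.35 for NRG1 and 0.60 for HBEGF, and none passed.

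The other 4 members lay at background and had differences of 0.31 (EREG), 0.04 (ERBB3), -0.08 (TGFA) and -0.13 (ERBB4). Without arrays 25 and 28, TGFA and ERBB4 had differences of 0.14 and 0.26, of the opposite sign. Limma called 0 of the 7 members (adjusted p = 1.00 for each, n = 3 per group), where 0% of all 21448 probe sets were called, and 0 of 7 had an unadjusted p under 0.05 against 2.6% of all probe sets. No member had groups of arrays that did not overlap, against 7.31% of all probe sets. The median difference was -0.08 over the 7 members and -0.0047 over all probe sets.

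The same was asked in SK-N-FI, and no member passed there. EGFR averaged 8.61 ± 0.03 in treated and 8.61 ± 0.29 in control cells (SD, n = 2 each), a difference of 0.0031 with an interval of -0.54 to 0.55. NRG1 averaged 9.71 ± 0.27 in treated and 9.48 ± 0.28 in control cells, a difference of 0.24 (-0.35 to 0.83). The intervals of both excluded a 2-fold change of signal, as did those of 5 of the 7 members and of 84.9% of all probe sets. HBEGF averaged 7.76 ± 0.30 in treated and 7.89 ± 0.68 in control cells, a difference of -0.12 (-0.93 to 0.68). ERBB3 had a difference of 0.34, ERBB4 of 0.0011, TGFA of -0.14 and EREG of -0.38, all at background.

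The sign of several SK-N-FI differences rested on single arrays. Leaving out each array in turn gave differences between -0.20 and 0.21 for EGFR, between -0.61 and 0.36 for HBEGF and between -0.77 and 0.50 for TGFA, and the value without treated array 1 was 0.50 for TGFA and 0.08 for EREG. NRG1 kept a positive difference, between 0.04 and 0.43. Limma called 0 of the 7 members (adjusted p = 1 for each, n = 2 per group), as it did 0% of all probe sets, and 0 of 7 had an unadjusted p under 0.05 against 2.85% of all. The conditions overlapped for all 7 members, while 27.8% of all probe sets had arrays that did not overlap.

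**Figure D2:**
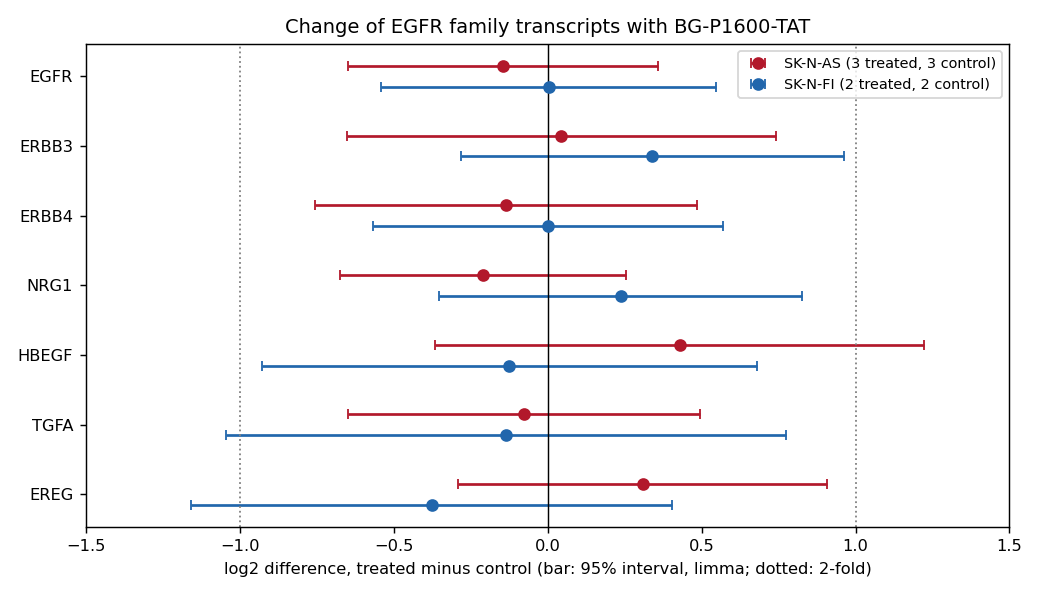
Log2 difference, treated minus control, of each member in SK-N-AS (red) and SK-N-FI (blue), with the 95% interval of the limma fit; dotted lines mark a 2-fold change. All 14 intervals include 0, and those of HBEGF in SK-N-AS and of TGFA and EREG in SK-N-FI reach past a 2-fold change.

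The treatment differences were then compared between the lines in a fit of all 10 arrays. For NRG1, with a negative treatment difference in SK-N-AS and a positive one in SK-N-FI, the SK-N-AS difference minus the SK-N-FI difference was -0.45 (-1.17 to 0.28). EGFR had -0.15 (-0.89 to 0.59), HBEGF 0.55 (-0.67 to 1.78) and EREG 0.69 (-0.31 to 1.68). ERBB3, ERBB4 and TGFA had -0.30, -0.14 and 0.06. Limma called 0 of 7 members for this difference (adjusted p = 1.00 for each), as it did 0% of all probe sets, and 0 of 7 had an unadjusted p under 0.05 against 2.13% of all. The intervals are wide. Of the 7, 1 (EGFR) excluded a 2-fold difference between the lines' responses in either direction, against 36.6% of all probe sets.

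The lines were compared next, and here the direction for EGFR and NRG1 turned with the scaling. As deposited, EGFR was lower in SK-N-AS, with 7.95 ± 0.29 in SK-N-AS controls and 8.61 ± 0.29 in SK-N-FI controls (SD, n = 3 and 2), a log2 difference, SK-N-AS minus SK-N-FI, of -0.66 (-1.18 to -0.14, limma adjusted p = 0.0315). The median difference of all probe sets was -0.61, nearly as large. After quantile normalization over all 10 arrays that median was 0.03, and EGFR was higher in SK-N-AS by 0.93 (0.44 to 1.42, limma adjusted p = 0.00522). With each array centred on its median the difference was 0.18 (limma adjusted p = 0.517), and with each array's background threshold subtracted it was -0.14 (adjusted p = 0.776), neither passing. The deposited call was also lost without SK-N-FI control array 1 (-0.45, limma adjusted p = 0.243) or SK-N-AS control array 25 (-0.50, adjusted p = 0.103).

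NRG1 showed the same turn. It had 9.19 ± 0.16 in SK-N-AS controls and 9.48 ± 0.28 in SK-N-FI controls as deposited, a difference of -0.28 (-0.80 to 0.23, limma adjusted p = 0.32) that did not pass. After quantile normalization the difference was 1.40 (0.87 to 1.93, limma adjusted p = 0.000553). With median centring it was 0.56 and with the background threshold subtracted 0.23, and neither passed (limma adjusted p = 0.0587 and 0.629).

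Between the treated groups, taken from the same fit and so sharing its estimate of the spread, both genes turned in sign with the scaling, and here NRG1 also passed as deposited. EGFR differed by -0.81 (-1.33 to -0.28, limma adjusted p = 0.0114) as deposited and by 0.74 (0.25 to 1.24, adjusted p = 0.018) after quantile normalization. NRG1 differed by -0.73 (-1.24 to -0.22, limma adjusted p = 0.0172) as deposited and by 0.95 (0.42 to 1.48, adjusted p = 0.00702) after quantile normalization. The treated arrays of SK-N-FI number 2, and without treated array 2 the deposited calls of EGFR and NRG1 were lost (limma adjusted p = 0.0603 and 0.153).

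The rank of a probe set among the 21448 of its own array is the same under these scalings. EGFR ranked between the percentiles 70.2 and 74.2 on the 6 SK-N-AS arrays and between 62.7 and 66.3 on the 4 SK-N-FI arrays. NRG1 ranked between 79.4 and 83.4 in SK-N-AS and between 70.02 and 75.2 in SK-N-FI. Neither transcript's ranks overlapped between the lines, and 25.7% of all probe sets likewise ranked higher on every SK-N-AS array. EGFR also had a lower deposited signal on every SK-N-AS array, a combination that 3.59% of all probe sets had. Whether a cell of one line holds more EGFR or NRG1 transcript than a cell of the other therefore cannot be told from these values.

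**Figure D3:**
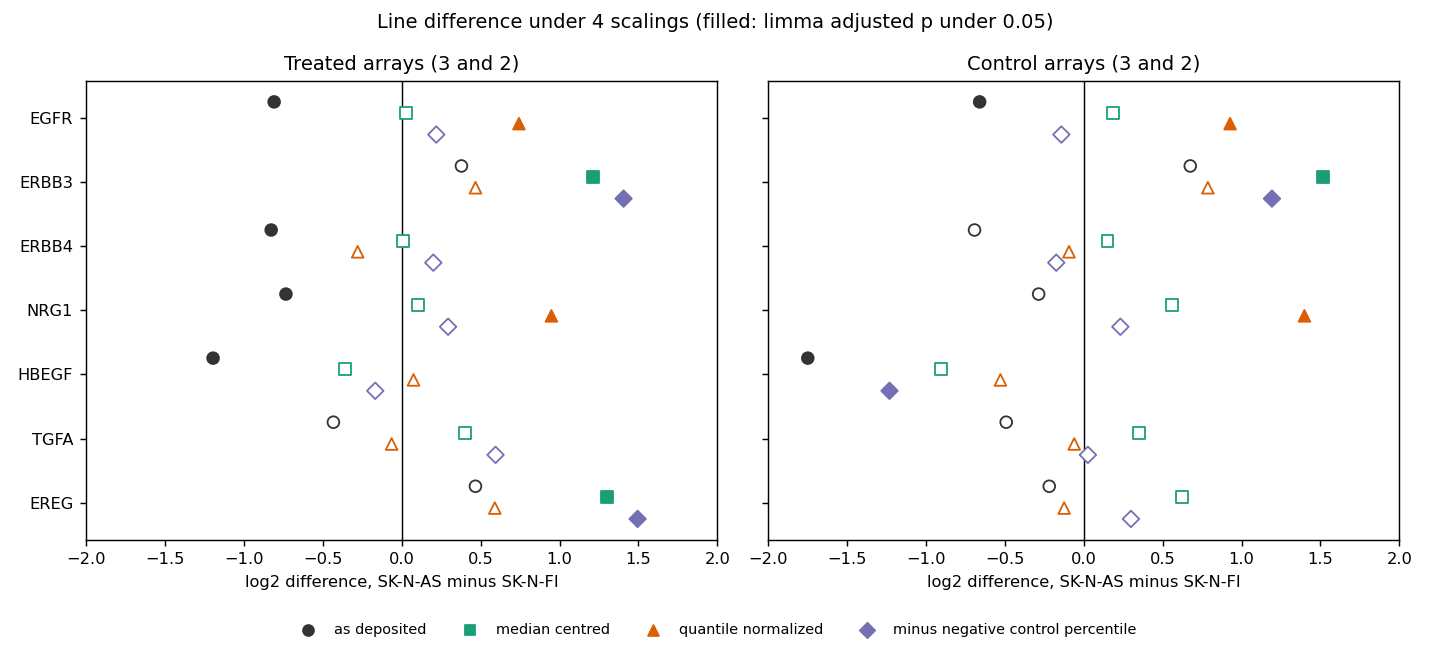
Log2 difference, SK-N-AS minus SK-N-FI, of each member among treated (left) and control arrays (right) under 4 scalings, with filled symbols for limma adjusted p under 0.05. EGFR and NRG1 lie left of 0 as deposited and right of 0 after quantile normalization in both panels.

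HBEGF was called lower in SK-N-AS as deposited, with 6.14 ± 0.61 in SK-N-AS controls and 7.89 ± 0.68 in SK-N-FI controls, a difference of -1.75 (-2.61 to -0.88, limma adjusted p = 0.00214). HBEGF was not above background on any SK-N-AS control array and was above it on 1 of 2 SK-N-FI control arrays, so no fold is given. The call was lost after quantile normalization (-0.53, limma adjusted p = 0.376) and median centring (-0.90, adjusted p = 0.0654), and held with the background threshold subtracted (-1.23, adjusted p = 0.00935). Among treated arrays HBEGF differed by -1.19 as deposited (limma adjusted p = 0.0206). That call was lost after quantile normalization (0.08, limma adjusted p = 0.909), median centring (-0.36, adjusted p = 0.451) and subtraction of the threshold (-0.17, adjusted p = 0.72). It was also lost without SK-N-AS treated array 30 (-0.92, limma adjusted p = 0.0684) or SK-N-FI treated array 1 (-0.98, adjusted p = 0.144).

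ERBB3, ERBB4, TGFA and EREG lay below background in both lines and have no fold between them. Of the 7 members, 2 were called between the control groups as deposited (EGFR and HBEGF, both higher in SK-N-FI) and 2 after quantile normalization (EGFR and NRG1, both higher in SK-N-AS). Over all probe sets 59.3% were called as deposited, 11.5% toward SK-N-AS and 47.8% toward SK-N-FI, and 46.7% after quantile normalization, 24% toward SK-N-AS and 22.6% toward SK-N-FI. Of all probe sets, 34% were called in the same direction under both scalings, and no member was. EGFR was called in opposite directions, as were 2.08% of all probe sets. Between treated groups 4 members were called as deposited (EGFR, ERBB4, HBEGF and NRG1), all lower in SK-N-AS, against 59% of all probe sets (11.2% toward SK-N-AS and 47.8% toward SK-N-FI). After quantile normalization 2 were called, EGFR and NRG1, both higher in SK-N-AS, against 45.3% of all (23.4% toward SK-N-AS and 21.9% toward SK-N-FI). The same direction under both scalings held for 33% of all probe sets and no member, and opposite directions for 1.86% of all and for EGFR and NRG1.

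At an unadjusted p under 0.05, limma passed 3 of 7 members between control groups (63.2% of all probe sets) and 4 of 7 between treated groups (63% of all). The arrays of the lines did not overlap for EGFR, HBEGF and TGFA among controls, against 73.1% of all probe sets. Among treated arrays they did not overlap for EGFR, ERBB3, ERBB4, HBEGF and NRG1, against 72.2% of all. These shares of members lay near or under those of all probe sets.

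The levels of EGFR, as deposited, ran from treated SK-N-AS over control SK-N-AS to control SK-N-FI and treated SK-N-FI, and neighbours within a line did not differ beyond their spread. NRG1 ran from treated SK-N-AS over control SK-N-AS and control SK-N-FI to treated SK-N-FI, and none of these neighbours differed beyond the test. HBEGF ran from control SK-N-AS over treated SK-N-AS to treated SK-N-FI and control SK-N-FI. In each case the step between the lines depended on the scaling.

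Other parts of the pathway were described from 5 lists holding 47 genes, of which 46 were measured. Treatment called 0 of 46 in SK-N-AS (limma, 3 with an unadjusted p under 0.05, against 2.6% of all probe sets) and 0 of 46 in SK-N-FI (1 with an unadjusted p under 0.05, against 2.85%). Of those at an unadjusted p under 0.05, NRG3 and GAB2 in SK-N-AS and LRIG1 in SK-N-FI were above background on no array of that line. FOSL1 in SK-N-AS was above it on all 6. The median differences were -0.11 in SK-N-AS and -0.02 in SK-N-FI, against -0.0047 and -0.0055 over all probe sets. Of the 12 measured transcripts that receptor signalling is known to induce, limma called none in either line (1 with an unadjusted p under 0.05 in SK-N-AS and 0 in SK-N-FI). Their mean was higher in treated than in control cells for 1 of 12 in SK-N-AS (median difference -0.17) and for 5 of 12 in SK-N-FI (median -0.03), against 49.2% and 49% of all probe sets. The 12 signs share the same arrays and are not independent counts. EGR1, FOS and DUSP5 were above background on no SK-N-AS array, and FOS, FOSL1 and MYC on no SK-N-FI array. Their signs there describe signal at background. Between the control groups 34 of the 46 were called as deposited (59.3% of all probe sets) and 31 after quantile normalization (46.7% of all). The base of all probe sets includes the 50.2% that were above background on no array. Among the 10253 probe sets above background on 2 or more arrays, tested alone, 8518 were called as deposited. Both scalings called 23 of the 46 in the same direction (34% of all), 9 toward SK-N-AS and 14 toward SK-N-FI.

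Among 6 further ligands, 5 were above background on no array. NRG2, a second neuregulin gene, was above it on all 4 SK-N-FI arrays and no SK-N-AS array, at 6.02 ± 0.24 in SK-N-AS controls and 8.67 ± 0.25 in SK-N-FI controls (SD, n = 3 and 2). This made it at least 3.16-fold higher in SK-N-FI as deposited and at least 1.11-fold after quantile normalization. For such bounds the dim group was given, on each array, its own signal or the background threshold, whichever was higher. Of the 5 shedding genes, 4 were above background on all 10 arrays. ADAM10, a protease that releases several ligands, was lower in SK-N-AS by both scalings (-2.90 as deposited and -1.53 after quantile normalization), while ADAM17, the main protease for HBEGF and TGFA, did not pass as deposited (-0.41) and was higher in SK-N-AS after it (1.21).

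Inhibitors and targets of the receptors were called in both directions between the control lines, as many probe sets were. Of 11 turnover and feedback genes, 2 were called toward SK-N-AS and 4 toward SK-N-FI by both scalings. Of 12 induced transcripts 5 and 4 were, and of all probe sets 34% were called in the same direction by both. SPRY1, a feedback inhibitor of RAS-MAPK signalling, was higher in SK-N-AS by 5.06 as deposited and 6.29 after quantile normalization, while SPRY4, of the same inhibitor family, was lower (-2.85 as deposited and -1.15 after it). LRIG1, which promotes the degradation of EGFR family receptors, was above background on all 6 SK-N-AS arrays and no SK-N-FI array. It was at least 1.44-fold higher in SK-N-AS as deposited and at least 3.76-fold after quantile normalization. CBL, LRIG3 and USP8 of the same list were lower in SK-N-AS by both scalings. Their differences were -3.14, -4.21 and -2.96 as deposited, and -1.54, -2.59 and -1.28 after quantile normalization. Of the induced transcripts, EGR1, an immediate early factor, was above background on all 4 SK-N-FI arrays and no SK-N-AS array, at least 19.2-fold higher in SK-N-FI as deposited and at least 6.26-fold after quantile normalization. FOSL1, an AP-1 subunit, was at least 1.53-fold higher in SK-N-AS as deposited and at least 4.04-fold after quantile normalization, and was above background on all 6 SK-N-AS arrays and no SK-N-FI array. Of 12 measured adaptors and proximal enzymes, 1 was called toward SK-N-AS and 4 toward SK-N-FI by both scalings. STAT3 was higher in SK-N-AS (1.60 and 3.15), and SOS1, an activator of RAS, was lower (-3.07 and -1.39).

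Transcripts whose array pattern was most like a member's were sought among the 7440 named probe sets above background on 5 or more of 10 arrays, by Pearson r over the 10 arrays after each line's mean was subtracted. For EGFR they were SFT2D2 (r = 0.945), WASF3 (0.934) and BCOR (0.933). For NRG1 they were FYCO1 (0.873), SRPX (0.872) and SLC6A8 (0.847). EGFR and NRG1 themselves had r = 0.06. The points share arrays, and each named gene is the highest of 7440 correlations over 10 points, so these are descriptions.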

How the data were processed

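The authors deposited signals of 24351 probe sets, whose log2 scale was read from the range of the values. RMA and Transcriptome Analysis Console 4.0.1.36 are named per the submitters' processing notes, and the role of each is not given in the sources used here. Of these, 2903 control probe sets were set aside and 21448 were tested, 17709 with a gene name in the platform annotation and 3739 without. The number of arrays limits the precision. The tests used R 4.3.3 and its package limma 3.58.1, by lmFit and eBayes, with Benjamini-Hochberg adjustment over all 21448 and a threshold of 0.05, within each line for treatment and over all 10 arrays between lines. The code was tested on simulated data. Alternatives were quantile normalization, median centring, a filter on dim probe sets, robust and trended eBayes, array weights, a shared fit, a replicate block and leaving out each array. Subtracting the background threshold, the crossed block and leaving out arrays 25 and 28 were chosen after seeing the data. The members and gene lists were chosen with earlier results of these data known. Every member is named. Genes of other pathway lists are named for passing the test between control lines, for being among the brightest of their list or for an unadjusted p under 0.05 with treatment. Only some of the 34 that passed between control lines as deposited are given with values above. SOS2 (-4.11 as deposited), PIK3R1 (-3.29) and MYC (3.12), for example, passed by both scalings and were left out there. Cell type markers are counted by detection, and the limma calls are counted for noradrenergic, mesenchymal and fibroblast markers only. Markers named with no other value than their detection (among them S100B, MBP and LYZ) need not have passed. They were chosen after their values were seen.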

Additional observations from a re-analysis of the deposited data

How the results depend on the processing

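No treatment setting called a member or any probe set. In SK-N-AS, ERBB4 had 0.073 with array weights, and without arrays 25 and 28 (chosen after seeing the data) ERBB4 had 0.26 and TGFA 0.14, against negative differences as deposited. In SK-N-FI, ERBB4 had -0.0097 after quantile normalization and -0.00038 after median centring. For the difference between the lines' responses, TGFA had -0.0037 after quantile normalization and ERBB4 0.095 with array weights. Leaving out each array in turn gave, in SK-N-AS, -0.32 to 0.24 for ERBB3, -0.28 to 0.14 for ERBB4 and -0.28 to 0.068 for TGFA. In SK-N-FI it gave -0.20 to 0.21 for EGFR, -0.20 to 0.20 for ERBB4, -0.84 to 0.085 for EREG, -0.61 to 0.36 for HBEGF and -0.77 to 0.50 for TGFA. For the difference between responses it gave -0.35 to 0.058 for EGFR, -0.66 to 0.018 for ERBB3, -0.33 to 0.14 for ERBB4 and -0.57 to 0.69 for TGFA. Where it left 1 array in a group, that array was assumed to vary like the others.

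Between control lines, quantile normalization gave 0.93 for EGFR and 1.40 for NRG1. Median centring gave 0.18 for EGFR, 0.56 for NRG1, 0.15 for ERBB4, 0.62 for EREG and 0.35 for TGFA, with 1 member called, ERBB3 (1.52). Subtracting the background threshold gave 0.23 for NRG1, 0.30 for EREG and 0.027 for TGFA. Between treated lines, quantile normalization gave 0.74 for EGFR, 0.95 for NRG1 and 0.075 for HBEGF. Median centring gave 0.028 for EGFR, 0.10 for NRG1, 0.0088 for ERBB4 and 0.40 for TGFA. Subtracting the threshold gave 0.22 for EGFR, 0.29 for NRG1, 0.20 for ERBB4 and 0.60 for TGFA. Each of these 3 settings called 2 members between treated lines, against 4 as deposited: EGFR and NRG1 after quantile normalization, and ERBB3 (1.21 and 1.41) and EREG (1.302 and 1.49) under the other two, both below background on all arrays. Each scaling changes the values of a whole array, and the signs of these differences depend on which one is used. With each array left out in turn, the difference of TGFA between treated lines ranged from -1.06 to 0.20. With the 99th percentile as threshold, 0 members were above background on all 10 arrays. The dim filter took ERBB3, ERBB4, EREG and TGFA out of the tests, and also HBEGF within each line.

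With the replicate block in SK-N-FI, 0 probe sets were called, 471 had an unadjusted p under 0.05, and EGFR had 0.0031. Same-numbered arrays had a correlation of -0.17, so the block was not taken as a pairing. The crossed replicate block, chosen after seeing the data, called 0, with 924 at an unadjusted p under 0.05.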
